A study of Homo sapiens with 4 samples.

Results

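The TGF-beta and BMP pathway was followed as 40 genes chosen by name, taken from the 58735 genes of the deposited count table. They comprise 7 ligands, 9 receptors, 5 signalling SMADs, 10 inhibitors, 4 latent TGF-beta binding proteins and 5 target genes. All 40 were found, and 39 had enough reads to be tested. The exception was ID4, which had 1 and 0 reads in shSPTLC2 cells and 2 and 2 reads in shCON cells.

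Bulk RNA sequencing was done on Hey-A8, an established human ovarian cancer cell line. The shSPTLC2 group (2 libraries) carries a short hairpin RNA against SPTLC2, a subunit of serine palmitoyltransferase, the enzyme that starts sphingolipid synthesis. The shCON group (2 libraries) carries the negative control hairpin, which the protocol describes as scrambled. All cells grew in RPMI-1640 with fetal bovine serum, and no ligand of the TGF-beta family is named as an addition to the medium. The labels conflict on the model. The design text calls the knockdown stable, whereas the treatment protocol speaks of transient transfection of hairpins aimed at another gene, ZDHHC15, with harvest after 36 h. The number of hairpins or clones is not given in the sources used here, nor whether the 2 libraries of a group came from separate cultures. All p-values therefore measure the spread between these libraries, which may be technical.

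Each library held 14464784 to 15084966 reads assigned to genes. SPTLC2 stood at 39.9 and 43.1 CPM (counts scaled to library size) in shSPTLC2 cells, against 58.7 and 60.7 CPM in shCON cells. Its log2 fold change was -0.52 ± 0.12 (SE), with an adjusted p of 0.0063 by edgeR's quasi-likelihood test (Benjamini-Hochberg). With shSPTLC2 replicate 1 left out that call was lost (adjusted p = 0.134), as it was with shSPTLC2 replicate 2 left out (adjusted p = 0.052). ZDHHC15 had 0 reads in all 4 libraries, which allows at most 0.195 to 0.206 CPM per library, counting error only. Of 10 epithelial markers, KRT7, KRT8, KRT18, PAX8 and MSLN averaged at least 10 CPM, while CDH1 had 0 reads in every library, and the 4 leukocyte markers summed to at most 0.340 CPM. Summed epithelial markers stood at 2853 to 2892 CPM in shSPTLC2 cells, against 2529 to 2622 CPM in shCON cells. They did not move together. PAX8 had 494 and 444 CPM in shSPTLC2 cells, against 273 and 294 CPM in shCON cells, and KRT7, KRT18 and MSLN were higher too. KRT8, the most abundant, had 1189 and 1225 CPM in shSPTLC2 cells, against 1269 and 1258 CPM in shCON cells. EPCAM had 3 and 5 reads in shSPTLC2 cells and 10 and 9 in shCON cells, and MUC16 had at most 1 read in any library. Transcripts of the mitochondrial genome took 8.56% to 10.1% of reads in shSPTLC2 libraries, against 5.46% to 6.39% in shCON libraries, and the part of this difference in the results was not tested.

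Ligands of the TGF-beta family are secreted dimers that bring together type II and type I receptor kinases. The type I receptors for TGF-beta and activin phosphorylate SMAD2 and SMAD3, those for BMPs phosphorylate SMAD1, SMAD5 and SMAD9, and both groups of SMADs enter the nucleus with SMAD4. The pathway limits itself through inhibitory SMADs, ubiquitin ligases, corepressors and secreted antagonists, many of which are also its target genes. In epithelial and ovarian tumours it is known both for growth arrest and for invasive, mesenchymal behaviour.

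At an adjusted p under 0.05, 8 of the 39 tested pathway genes (20.5%) differed between shSPTLC2 and shCON cells, beside 19.4% of all 15313 tested genes. ACVR2B, BMPR2, PMEPA1, FST, LTBP3 and LTBP4 were higher in shSPTLC2 cells, and SMAD7 and ID1 were lower. The 6 higher genes are 15.4% of those tested, beside 10.4% of all genes, and the 2 lower ones are 5.13%, beside 9.0% of all genes. The share called thus lay close to that of the whole transcriptome. In bulk libraries a change in the share of cells that express a gene and a change in RNA per cell cannot be told apart. The median log2 fold change of the pathway genes was 0.14, beside 0.005 for all genes. The 2 shSPTLC2 libraries did not overlap the 2 shCON libraries in CPM for 26 pathway genes (66.7%), beside 61.5% of all genes. Of the 39 tested genes, 15 were higher without overlap (38.5%), beside 31.3% of all genes, and 11 were lower without overlap (28.2%), beside 30.2% of all genes.

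Single libraries moved these counts. Without shCON replicate 1 there were 10 higher and 4 lower calls (35.9% of the tested pathway genes, beside 24.8% of all genes in that fit). Without shCON replicate 2 there were 7 higher and 5 lower (30.8%, beside 20.1% of all genes). Without shSPTLC2 replicate 1 there were 4 higher and 1 lower (12.8%, beside 3.97% of all genes), and without shSPTLC2 replicate 2 there were 3 higher and 1 lower (10.3%, beside 6.17% of all genes). SMAD7, PMEPA1, LTBP3 and LTBP4 were called in the fit of all 4 libraries and in all 11 alternatives.

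**Figure D1:**
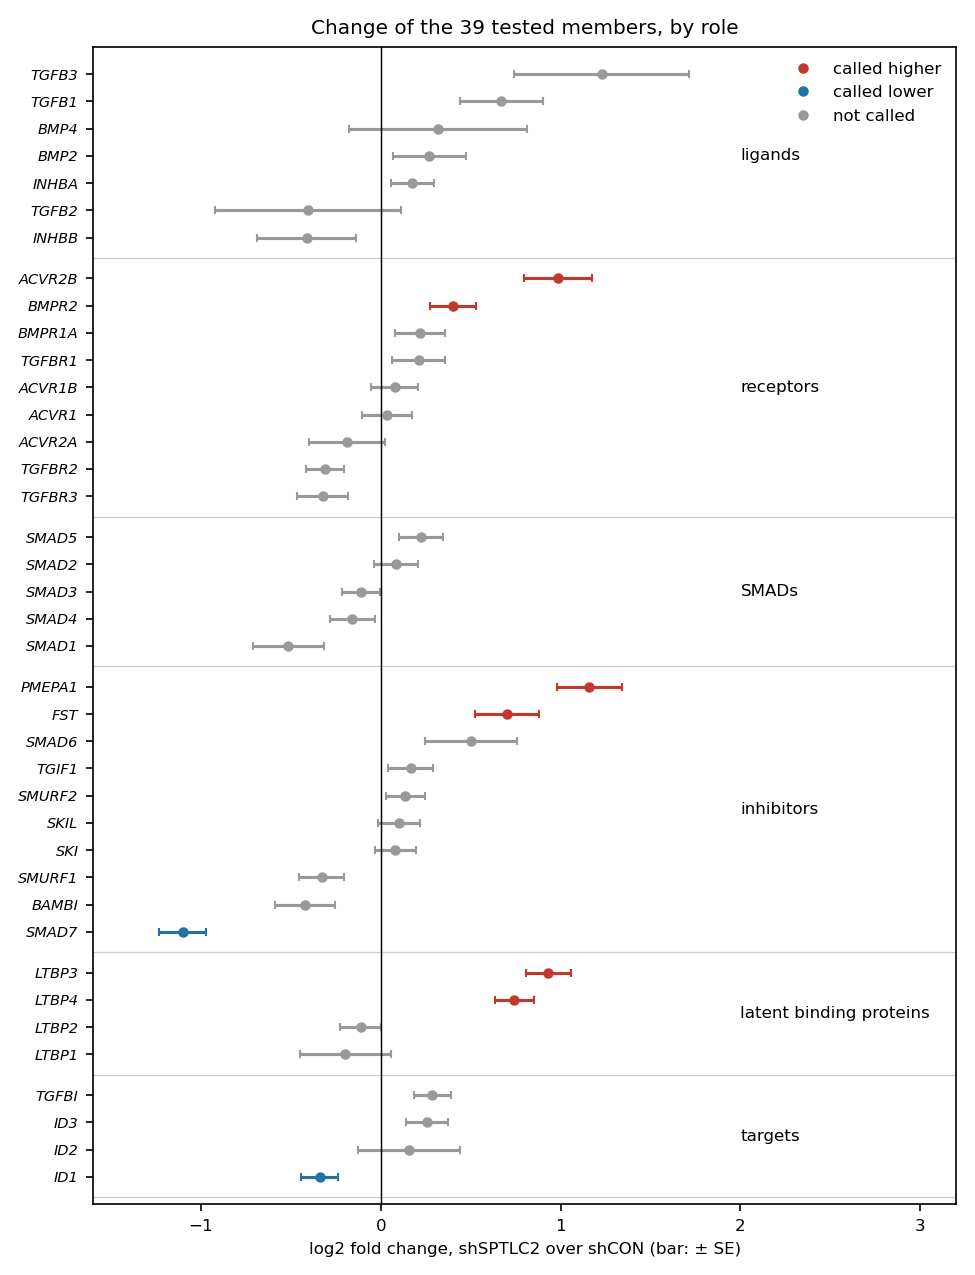
Log2 fold change of shSPTLC2 over shCON cells for the 39 tested pathway genes, grouped by role, with bars of ± 1 SE from edgeR and colour for the call at an adjusted p under 0.05. The 8 called genes lie among receptors, inhibitors, latent binding proteins and targets, PMEPA1 has the highest value among them (1.16) and SMAD7 the lowest (-1.10).

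Promoter windows are shown for the 4 genes that were called under every setting, 3 higher and 1 lower, because they carry the comparison. Each runs from 250 bases before to 50 bases after a RefSeq transcription start on GRCh38.p14, written 5′ to 3′ on the strand of the gene. Capitals mark CAGAC, a SMAD-binding element, or its reverse complement GTCTG. The SMAD7 window is at chr18:48950916-48951215 on the minus strand, the PMEPA1 window at chr20:57711423-57711722 on the minus strand, the LTBP3 window at chr11:65558310-65558609 on the minus strand and the LTBP4 window at chr19:40592916-40593215 on the plus strand. Where a gene has several windows, the one nearest to its annotated 5′ end is given. The RefSeq start lies 1087 bases away from that end for SMAD7, 571 for LTBP3, 283 for LTBP4 and 64 for PMEPA1.
SMAD7: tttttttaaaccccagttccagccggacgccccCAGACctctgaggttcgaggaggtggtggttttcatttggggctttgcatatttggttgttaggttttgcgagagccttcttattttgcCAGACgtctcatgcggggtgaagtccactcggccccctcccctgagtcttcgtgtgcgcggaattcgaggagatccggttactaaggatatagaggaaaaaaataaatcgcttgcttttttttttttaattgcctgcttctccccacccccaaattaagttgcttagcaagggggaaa
PMEPA1: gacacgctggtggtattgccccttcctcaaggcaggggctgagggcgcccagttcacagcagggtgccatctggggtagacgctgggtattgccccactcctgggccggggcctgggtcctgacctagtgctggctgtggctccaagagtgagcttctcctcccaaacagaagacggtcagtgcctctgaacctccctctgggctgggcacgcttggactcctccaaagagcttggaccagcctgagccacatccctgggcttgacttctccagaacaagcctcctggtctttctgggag
LTBP3: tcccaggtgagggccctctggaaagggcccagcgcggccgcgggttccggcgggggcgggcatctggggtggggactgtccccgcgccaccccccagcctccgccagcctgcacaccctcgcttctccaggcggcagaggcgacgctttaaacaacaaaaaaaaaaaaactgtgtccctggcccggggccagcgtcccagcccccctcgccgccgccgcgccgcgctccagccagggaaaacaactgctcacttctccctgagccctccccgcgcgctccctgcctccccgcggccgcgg
LTBP4: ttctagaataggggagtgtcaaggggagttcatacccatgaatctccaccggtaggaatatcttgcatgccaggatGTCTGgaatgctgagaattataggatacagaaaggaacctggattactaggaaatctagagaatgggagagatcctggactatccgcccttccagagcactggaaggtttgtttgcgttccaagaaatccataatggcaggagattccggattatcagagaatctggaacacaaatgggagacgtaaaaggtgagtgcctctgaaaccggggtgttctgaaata
The SMAD7 window, of the gene that was lower in shSPTLC2 cells, holds 2 copies of the element, and the LTBP4 window holds 1. The PMEPA1 and LTBP3 windows hold 0. LTBP3 has the most GC-rich of these windows at 72%, followed by PMEPA1 at 62%, SMAD7 at 48.3% and LTBP4 at 45.7%.

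A RefSeq window was matched for 38 of the pathway genes, all but BMP2 and SKI. Some of these lie far from the annotated 5′ end, such as those of TGFBR3 (20184 bases), BMP4 (3711 bases) and ID2 (3211 bases). CAGAC, searched on both strands, occurred in 20 of them (52.6%), beside 45.3% of all 35116 promoter windows. The GC-rich SMAD1 and SMAD5 element GGCGCC occurred in 14 (36.8%), beside 19.2% of all windows. Each of these 14 windows has at least 62% GC, whereas the median of all windows is 58.7%. The pathway genes also entered with 1 window each, while the full set can hold several per gene. The part of GC content in this share was not tested. The palindrome GTCTAGAC, which reads the same on both strands, occurred in 1, that of SMAD6 (2.63%), beside 0.202% of all windows. That share rests on 1 window. Among the called genes, the windows of SMAD7, BMPR2, LTBP3 and LTBP4 do not reach the annotated 5′ end, so the sequence there was not searched. Their RefSeq starts lie 1087, 609, 571 and 283 bases from it. Of the called genes whose windows are not shown, BMPR2 has a window with 4 copies of CAGAC, and those of ACVR2B, FST and ID1 hold 0. These are letter matches and not measured binding sites.

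Levels per transcript length spanned a wide range in Hey-A8 cells. On the deposited FPKM scale, 12 of the 40 genes averaged at least 10 over the 4 libraries, 33 averaged at least 1, and ACVR2B, LTBP1, SMAD6, BMP4, TGFB3, TGFB2 and ID4 stayed under 1. ID1, a BMP target and inhibitor of helix-loop-helix factors, was the most abundant, with 144.3 ± 11.0 FPKM in shSPTLC2 cells and 184.0 ± 5.23 FPKM in shCON cells (SD, n = 2 each). TGFBR2, the type II receptor for TGF-beta, followed with 122.7 ± 5.99 FPKM in shSPTLC2 cells and 153.3 ± 4.11 FPKM in shCON cells. ID1 lay above TGFBR2, and TGFBR2 above SMURF2, in every library. SMURF2, a ubiquitin ligase for SMADs and receptors, had 90.5 ± 3.46 FPKM in shSPTLC2 cells and 82.9 ± 5.64 FPKM in shCON cells. TGFB1 followed, with 78.9 ± 2.72 FPKM in shSPTLC2 cells and 49.9 ± 17.6 FPKM in shCON cells, where it overlapped the next gene in the order, TGFBI. Among the ligands, TGFB1 and INHBA were the abundant transcripts, and TGFB2 and TGFB3 were near the bottom of the order. All 3 receptors of TGF-beta itself and the SMADs of both branches were detected in every library.

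**Figure D2:**
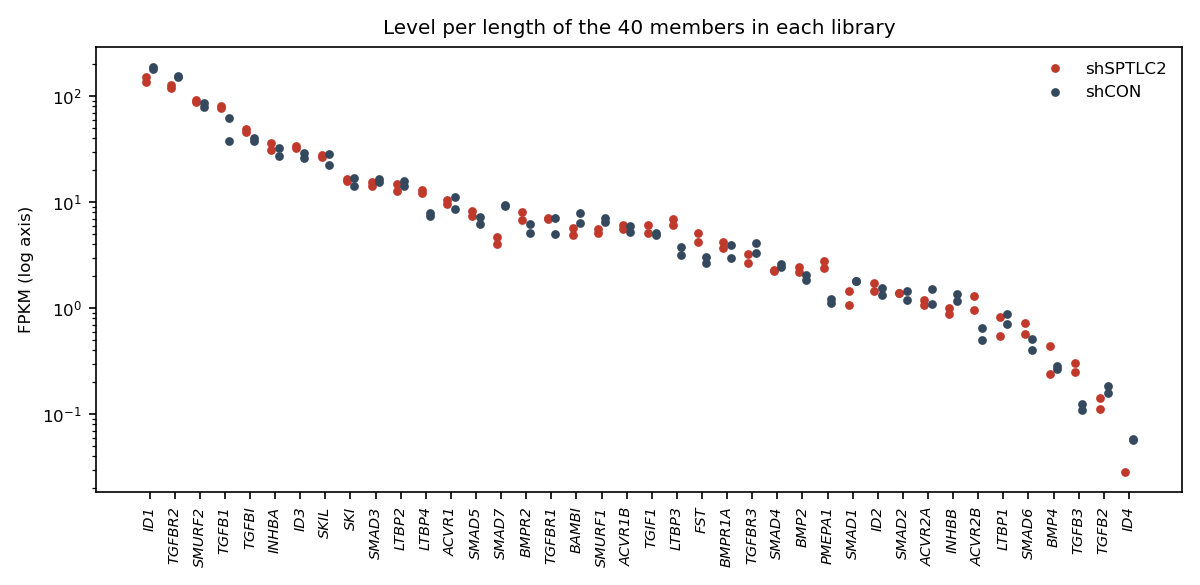
Deposited FPKM of the 40 pathway genes on a log axis in each of the 2 shSPTLC2 and 2 shCON libraries, ordered by mean level. ID1 leads the order and ID4 ends it, and the value of 0 for ID4 in shSPTLC2 replicate 2 cannot be drawn on this axis.

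None of the 7 ligands was called, beside 19.4% of all genes. By edgeR's quasi-likelihood test 2 of the 7 ligands, TGFB1 and TGFB3, had an unadjusted p under 0.05, beside 5081 of all 15313 tested genes. DESeq2 called 0 of the 7. TGFB1, which encodes the main TGF-beta isoform (chromosome 19, 41301587 to 41353911, minus strand, hg38), had 265 and 251 CPM in shSPTLC2 cells, against 202 and 122 CPM in shCON cells. Both shSPTLC2 libraries lay above both shCON libraries, and the shCON libraries were far apart from each other. The means were 258.1 ± 9.65 CPM in shSPTLC2 cells and 162.0 ± 56.0 CPM in shCON cells, a log2 fold change of 0.67 ± 0.23 with an adjusted p of 0.10. Without shCON replicate 1 the log2 fold change was 1.07 (adjusted p = 4.4e-18), and without shCON replicate 2 it was 0.35 (adjusted p = 0.012). Over the 11 alternatives the adjusted p of TGFB1 spanned 4.4e-18 to 0.33 and passed the threshold in 5, and the cause was not tested. With correction for GC content its log2 fold change was 0.45. Its exons overlap those of HNRNPUL1 on the other strand by 215 bases. HNRNPUL1 had 4106 and 4228 reads in shSPTLC2 cells and 4434 and 5288 reads in shCON cells. Whether reads were counted by strand is not stated, so reads in that overlap cannot be told apart.

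The remaining ligands were not called either, and INHBA alone among them was called in an alternative. TGFB3, a TGF-beta isoform, had 1.50 and 1.24 CPM in shSPTLC2 cells, against 0.539 and 0.618 CPM in shCON cells. Its log2 fold change of 1.23 ± 0.49 was the largest positive one of the pathway, but it rested on 22 and 19 reads in shSPTLC2 cells and 8 and 9 reads in shCON cells (adjusted p = 0.089). TGFB2, the third TGF-beta isoform, had 0.748 and 0.586 CPM in shSPTLC2 cells and 0.809 and 0.961 CPM in shCON cells. At this depth a difference in TGFB2 was not detectable (log2 fold change -0.41 ± 0.52). INHBA, whose dimer is activin A, had 263 and 299.9 CPM in shSPTLC2 cells and 225 and 273 CPM in shCON cells, and the groups overlapped. This gave a log2 fold change of 0.18 ± 0.12 (adjusted p = 0.32), and without shCON replicate 2 it was 0.32 (adjusted p = 0.023), in a range of 0.023 to 0.86 over the alternatives. INHBB, the activin B subunit, was less abundant and had a log2 fold change of -0.41 ± 0.28. The BMP ligands BMP2 and BMP4 had log2 fold changes of 0.27 ± 0.20 and 0.32 ± 0.50. BMP2 lay at 7.96 and 8.93 CPM in shSPTLC2 cells and at 7.35 and 6.66 CPM in shCON cells.

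Receptors contributed 2 called genes of 9 (22.2%, beside 19.4% of all genes), both type II receptors and both higher. ACVR2B, a type II receptor that binds activins (chromosome 3, 38453851 to 38493142, plus strand, hg38), had 15.2 and 20.5 CPM in shSPTLC2 cells, against 10.1 and 7.96 CPM in shCON cells. The groups did not overlap, and shSPTLC2 replicate 2 was the highest. ACVR2B averaged 17.9 ± 3.74 CPM in shSPTLC2 cells and 9.04 ± 1.52 CPM in shCON cells (SD, n = 2 each). The log2 fold change was 0.98 ± 0.19, or 1.98-fold, with an adjusted p of 0.0024 by edgeR's quasi-likelihood test (Benjamini-Hochberg). The call was lost without shSPTLC2 replicate 2 (log2 fold change 0.75, adjusted p = 0.071), in a range of 3.9e-07 to 0.071 over the alternatives. The related ACVR2A, also an activin receptor, had a log2 fold change of -0.19 ± 0.21 and overlapping groups.

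BMPR2, the type II receptor for BMPs (chromosome 2, 202376936 to 202567751, plus strand, hg38), had 81.3 and 96.7 CPM in shSPTLC2 cells, against 74.2 and 60.7 CPM in shCON cells. The groups did not overlap, but the libraries within each group lay further apart than the nearest libraries of the different groups. BMPR2 averaged 89.0 ± 10.9 CPM in shSPTLC2 cells and 67.5 ± 9.5 CPM in shCON cells, with a log2 fold change of 0.40 ± 0.13, or 1.32-fold (adjusted p = 0.038 by edgeR). This call did not hold with DESeq2 (adjusted p = 0.075), without shCON replicate 2 (log2 fold change 0.26, adjusted p = 0.127) or with either shSPTLC2 library left out (adjusted p = 0.105 without replicate 1 and 0.378 without replicate 2). Over all alternatives its adjusted p spanned 2.2e-04 to 0.38.

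TGFBR2, the type II receptor for TGF-beta and the second most abundant pathway transcript per length, pointed the other way without being called. It had 564 and 602 CPM in shSPTLC2 cells, against 734 and 713 CPM in shCON cells. Both shSPTLC2 libraries lay below both shCON libraries. The means were 583.1 ± 26.8 CPM in shSPTLC2 cells and 723.3 ± 14.9 CPM in shCON cells, a log2 fold change of -0.31 ± 0.11 (adjusted p = 0.054). DESeq2 called it (adjusted p = 0.025), as did the fits without a low-count filter (adjusted p = 0.039), without shCON replicate 1 (adjusted p = 0.021) and without shCON replicate 2 (adjusted p = 0.0096), within a range of 0.0096 to 0.39. TGFBR3, the co-receptor betaglycan, had 23.7 and 28.2 CPM in shSPTLC2 cells and 35.5 and 29.4 CPM in shCON cells, with a log2 fold change of -0.32 ± 0.14 (adjusted p = 0.13). Without shCON replicate 2 it was called (log2 fold change -0.46, adjusted p = 0.014), in a range of 0.014 to 0.58. With all 4 libraries none of the 4 type I receptors was called by edgeR or by DESeq2. By edgeR 0 of them had an unadjusted p under 0.05, beside 5081 of all 15313 tested genes. TGFBR1, for TGF-beta, had a log2 fold change of 0.21 ± 0.15, and ACVR1B, for activin, had 0.08 ± 0.13. ACVR1 and BMPR1A, which carry BMP signals, had 0.04 ± 0.14 and 0.22 ± 0.14. Without shCON replicate 1 both TGFBR1 (log2 fold change 0.47, adjusted p = 0.0063) and BMPR1A (0.41, adjusted p = 0.022) were called higher, and over the alternatives their adjusted p reached 0.93 and 0.90.

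None of the 5 signalling SMADs was called, beside 19.4% of all genes, and DESeq2 called 0 of them too. By edgeR 1 of the 5, SMAD1, had an unadjusted p under 0.05, beside 5081 of all 15313 tested genes. SMAD3, the TGF-beta and activin SMAD and the most abundant of the 5 per length, had 130.1 and 141 CPM in shSPTLC2 cells and 151 and 142 CPM in shCON cells. Both shSPTLC2 libraries lay below both shCON libraries by a small margin (log2 fold change -0.11 ± 0.11, adjusted p = 0.49). SMAD2, its partner in the same branch, had a log2 fold change of 0.09 ± 0.12, and SMAD4, shared by both branches, had -0.16 ± 0.13. The mediators of TGF-beta and activin signals thus differed by about 1 SE. In the BMP branch SMAD1 had 6.60 and 8.86 CPM in shSPTLC2 cells and 11.0 and 11.1 CPM in shCON cells, a log2 fold change of -0.51 ± 0.20 (adjusted p = 0.080). SMAD5 of the same branch was far more abundant, and its log2 fold change was 0.22 ± 0.12.

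Among the called genes, the inhibitors held the largest differences in both directions. SMAD7, the inhibitory SMAD that blocks TGF-beta receptors and is itself a TGF-beta target (chromosome 18, 48919853 to 48952052, minus strand, hg38), had 23.7 and 20.3 CPM in shSPTLC2 cells, against 47.7 and 46.6 CPM in shCON cells. These values came from 348 and 312 reads in shSPTLC2 cells and 708 and 679 reads in shCON cells. Both shSPTLC2 libraries lay far below both shCON libraries, and the replicates of each group lay near each other. SMAD7 averaged 22.0 ± 2.36 CPM in shSPTLC2 cells and 47.2 ± 0.804 CPM in shCON cells, and its log2 fold change was -1.10 ± 0.13, or 0.466-fold. The adjusted p was 7.1e-05 by edgeR's quasi-likelihood test (Benjamini-Hochberg), the smallest in the pathway, and lay between 1.8e-13 and 0.0048 over the alternatives. SMAD6, the inhibitory SMAD of the BMP branch, was scarcer, with 6.26 and 4.95 CPM in shSPTLC2 cells and 3.44 and 4.46 CPM in shCON cells. Its groups did not overlap, and its log2 fold change was 0.50 ± 0.26 (adjusted p = 0.18).

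PMEPA1 is a membrane protein that sequesters receptor SMADs and is induced by TGF-beta (chromosome 20, 57648392 to 57711536, minus strand, hg38). It had 15.8 and 13.7 CPM in shSPTLC2 cells, against 6.81 and 6.38 CPM in shCON cells. The groups were well apart, from 233 and 210 reads in shSPTLC2 cells and 101 and 93 reads in shCON cells. The means were 14.8 ± 1.53 CPM in shSPTLC2 cells and 6.60 ± 0.302 CPM in shCON cells, a log2 fold change of 1.16 ± 0.18, or 2.24-fold (adjusted p = 6.4e-04 by edgeR). It held in every alternative, with a log2 fold change of 1.05 to 1.26. Thus SMAD7 and PMEPA1, both feedback inhibitors and both known TGF-beta targets, moved in opposite directions. The antisense gene NKILA, a long non-coding RNA, overlaps PMEPA1 exons by 343 bases, and it had 23 and 28 reads in shSPTLC2 cells and 5 and 3 reads in shCON cells. The sources used here do not state whether reads were counted by strand, and reads in that overlap cannot be told apart. The NKILA log2 fold change was 2.60 ± 0.55 (adjusted p = 0.0042 by edgeR), and over the alternatives its adjusted p reached 0.077.

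FST encodes follistatin, a secreted antagonist that binds activins (chromosome 5, 53480409 to 53487134, plus strand, hg38). It had 12.6 and 15.2 CPM in shSPTLC2 cells, against 9.04 and 8.03 CPM in shCON cells. The groups did not overlap, and they averaged 13.9 ± 1.84 CPM in shSPTLC2 cells and 8.53 ± 0.711 CPM in shCON cells. The log2 fold change was 0.70 ± 0.18, or 1.63-fold (adjusted p = 0.014 by edgeR). The call was lost with DESeq2 (adjusted p = 0.057) and with either shSPTLC2 library left out (adjusted p = 0.0615 without replicate 1 and 0.181 without replicate 2), in a range of 0.0021 to 0.18.

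The other inhibitors were not called. SMURF2, the most abundant of them per length, had 620.5 and 652 CPM in shSPTLC2 cells and 604 and 554 CPM in shCON cells, with a log2 fold change of 0.14 ± 0.11 (adjusted p = 0.41). Its relative SMURF1, a ligase for BMP SMADs, had 32.8 and 35.2 CPM in shSPTLC2 cells and 40.8 and 44.6 CPM in shCON cells. SMURF1 had a log2 fold change of -0.33 ± 0.12 (adjusted p = 0.076), and it was called without shCON replicate 1 (adjusted p = 0.022, in a range of 0.022 to 0.39). Its exons overlap those of TRRAP on the other strand over 11.7% of its length. TRRAP had 886 and 961 reads in shSPTLC2 cells and 1070 and 1179 in shCON cells, and reads in that overlap cannot be told apart. BAMBI, a receptor-like protein without a kinase, had 13.3 and 11.4 CPM in shSPTLC2 cells and 18.1 and 14.9 CPM in shCON cells. Its log2 fold change was -0.42 ± 0.17 (adjusted p = 0.090), and it was called without shCON replicate 2 (adjusted p = 0.016, in a range of 0.016 to 0.42). The nuclear corepressors SKIL, SKI and TGIF1 had log2 fold changes of 0.10 ± 0.12, 0.08 ± 0.11 and 0.17 ± 0.13. SKIL lay at 219 and 208 CPM in shSPTLC2 cells and at 221 and 177 CPM in shCON cells, so its groups overlapped.

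**Figure D3:**
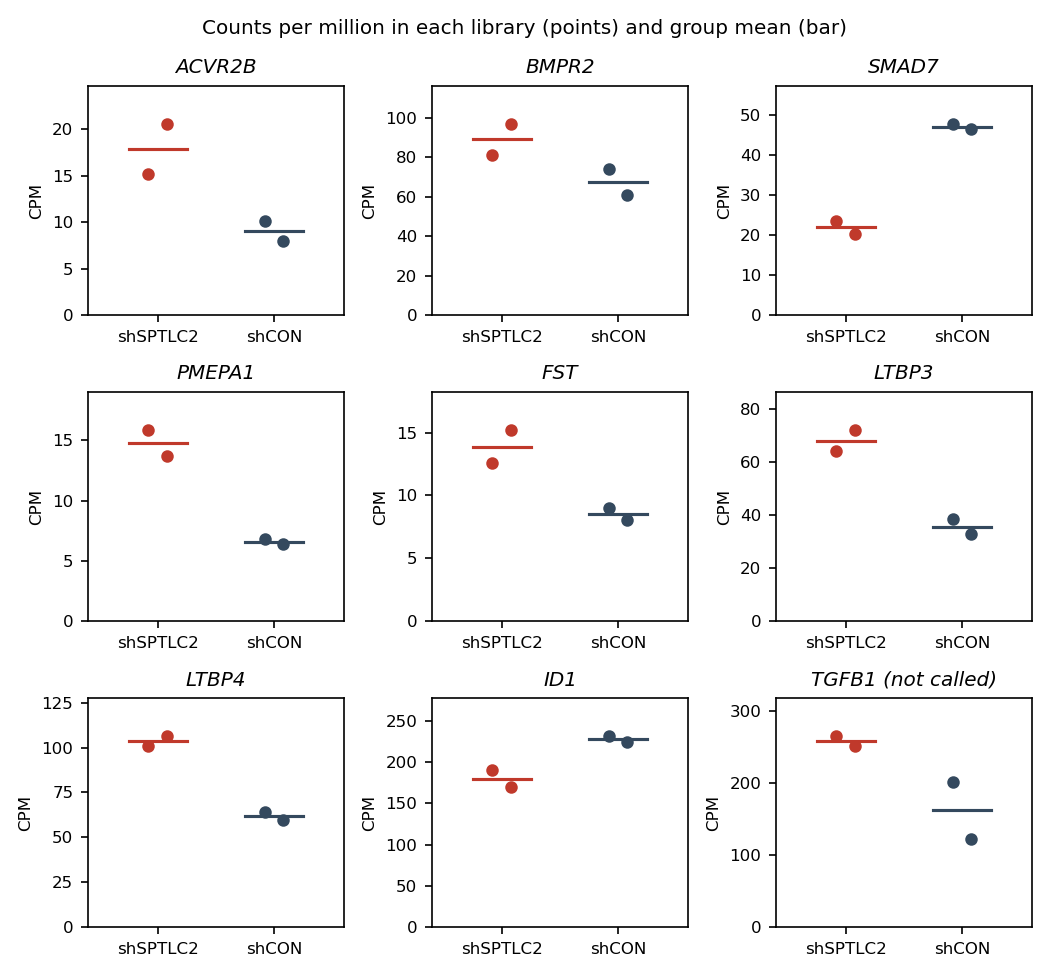
CPM in each library (points) with the group mean (bar) for the 8 called pathway genes and for TGFB1, shSPTLC2 on the left and shCON on the right of each panel, all axes from 0. The groups are separate in every panel, and the 2 shCON libraries of TGFB1 lie at 202 and 122 CPM.

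Of the 4 latent TGF-beta binding proteins, matrix proteins related to fibrillins, 2 were called higher in shSPTLC2 cells (50%, beside 10.4% of all genes). LTBP3, which binds latent TGF-beta (chromosome 11, 65538805 to 65558930, minus strand, hg38), had 64.1 and 72.0 CPM in shSPTLC2 cells, against 38.5 and 32.8 CPM in shCON cells. LTBP3 averaged 68.0 ± 5.61 CPM in shSPTLC2 cells and 35.7 ± 4.03 CPM in shCON cells, a log2 fold change of 0.93 ± 0.13, or 1.91-fold (adjusted p = 2.1e-04 by edgeR). LTBP4, which binds latent TGF-beta 1 (chromosome 19, 40592883 to 40629818, plus strand, hg38), had 101 and 106 CPM in shSPTLC2 cells, against 63.9 and 59.9 CPM in shCON cells. For both genes the shSPTLC2 libraries lay well above the shCON libraries. LTBP4 averaged 103.7 ± 3.69 CPM in shSPTLC2 cells and 61.9 ± 2.83 CPM in shCON cells, a log2 fold change of 0.74 ± 0.11, or 1.67-fold (adjusted p = 3.8e-04 by edgeR). LTBP2, a family member of elastic fibres that does not bind latent TGF-beta, was the most abundant of the 4 per length and overlapped between groups. It had 136 and 117 CPM in shSPTLC2 cells and 129 and 145 CPM in shCON cells (log2 fold change -0.11 ± 0.11, adjusted p = 0.52). LTBP1 was scarce, with a log2 fold change of -0.20 ± 0.25.

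LTBP3 and LTBP4 have the most GC-rich transcripts among the called genes, at 67.8% and 66.7%. Among the 3062 tested genes of highest GC content, 57.7% to 83.9%, 613 were higher and 153 lower in shSPTLC2 cells, with a median log2 fold change of 0.17. After correction for GC content LTBP3 had a log2 fold change of 0.60 (adjusted p = 0.0043) and LTBP4 had 0.43 (adjusted p = 0.012), within ranges of 1.6e-11 to 0.0094 and 1.9e-08 to 0.019 over the alternatives. Both therefore kept their call with a smaller difference. SMAD7 and ID1 lie in the same GC range, at 58.7% and 58.6%, and both were lower in shSPTLC2 cells. The transcripts of PMEPA1, ACVR2B, FST and BMPR2 have 53.8%, 45.7%, 45.1% and 37.6% GC.

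**Figure D4:**
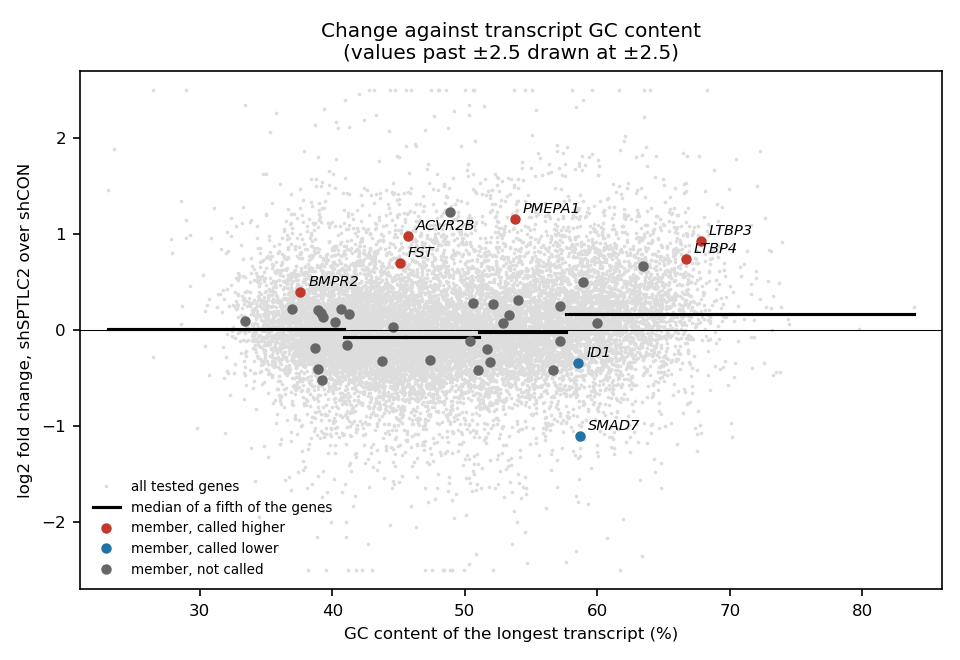
Log2 fold change of shSPTLC2 over shCON cells against GC content of the longest transcript for all tested genes (grey) and the pathway genes (large points, coloured by call), with the median of each of 5 equal groups of genes by GC content as a black line. The median of the most GC-rich group is 0.17, LTBP3 and LTBP4 lie above it, and SMAD7 and ID1 lie below it.

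Of the 4 tested target genes, 1 was called lower in shSPTLC2 cells (25%, beside 9.0% of all genes). ID1 (chromosome 20, 31605283 to 31606515, plus strand, hg38) had 189.7 and 169.7 CPM in shSPTLC2 cells, against 231 and 224 CPM in shCON cells. Both shSPTLC2 libraries lay below both shCON libraries, at 179.7 ± 14.2 CPM in shSPTLC2 cells and 227.5 ± 5.04 CPM in shCON cells. The log2 fold change was -0.34 ± 0.11, or 0.79-fold, with an adjusted p of 0.033 by edgeR's quasi-likelihood test (Benjamini-Hochberg). The call was lost with library totals as the scale (adjusted p = 0.075) and with either shSPTLC2 library left out (adjusted p = 0.142 without replicate 1 and 0.334 without replicate 2), in a range of 0.0056 to 0.33. ID2 and ID3, BMP targets of the same family, had log2 fold changes of 0.16 ± 0.29 and 0.26 ± 0.12. ID3 lay at 61.0 and 58.3 CPM in shSPTLC2 cells, above its 52.6 and 47.2 CPM in shCON cells, and it was not called (adjusted p = 0.14).

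TGFBI, a secreted matrix protein named for its induction by TGF-beta, had 362 and 385 CPM in shSPTLC2 cells, against 314 and 298 CPM in shCON cells. Both shSPTLC2 libraries were above both shCON libraries, at 373.5 ± 16.6 CPM in shSPTLC2 cells and 306.1 ± 11.4 CPM in shCON cells. Its log2 fold change of 0.29 ± 0.11 had an adjusted p of 0.067. It was called with library totals (adjusted p = 0.037), with GC correction (adjusted p = 0.040) and without shCON replicate 1 (adjusted p = 0.017), in a range of 0.017 to 0.39.

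**Figure D5:**
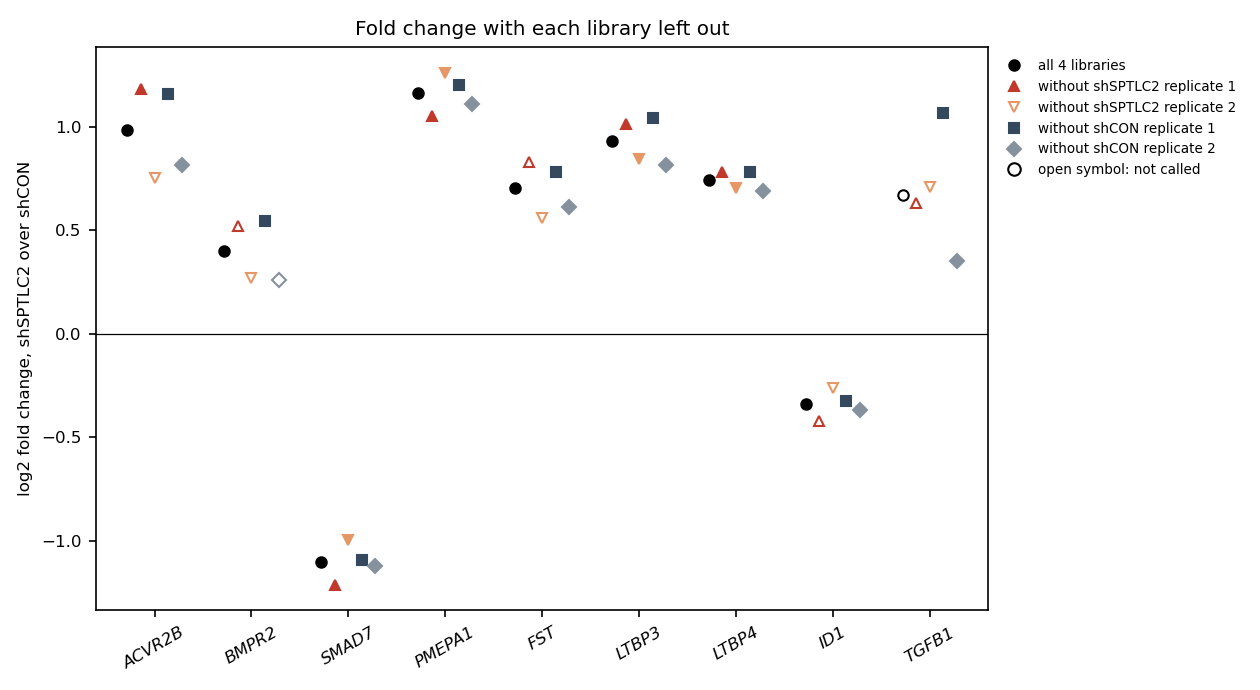
Log2 fold change of shSPTLC2 over shCON cells for the 8 called pathway genes and TGFB1, with all 4 libraries and with each library left out, open symbols marking an adjusted p of 0.05 or above. SMAD7, PMEPA1, LTBP3 and LTBP4 have filled symbols throughout, and the values of TGFB1 run over 0.35 to 1.07.

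Other genes of the pathway were read from 7 lists holding 107 genes, of which 78 were tested. In shSPTLC2 cells 27 of these were called (34.6%, beside 19.4% of all genes). Of them 11 were higher (14.1%, beside 10.4% of all genes) and 16 were lower (20.5%, beside 9.0% of all genes), with a median log2 fold change of 0.007. Only 4 of these 27 genes, GREM1, FSTL3, NEDD4L and HES1, were called in every alternative. Without shSPTLC2 replicate 1, 22 lost their call (adjusted p 0.058 to 0.303), and without shSPTLC2 replicate 2, 15 did (adjusted p 0.0626 to 0.262). Without shCON replicate 2, ANGPTL4, ENG and RUNX2 did, at up to 0.127, and without shCON replicate 1, HEY1 and NRROS did, at up to 0.261. DESeq2 did not call ANGPTL4, HEY1, NRROS, RUNX2 and UNC5B (adjusted p 0.056 to 0.164). AMH, ENG and HEY1 lost their call with GC correction (up to 0.481), and ANGPTL4 and HEY1 with library totals (up to 0.075).

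Of 8 tested secreted antagonists outside the 40 genes, 1 was higher and 1 lower, beside 19.4% of all genes called. FSTL3, a follistatin relative that binds activins, had 49.9 and 48.7 CPM in shSPTLC2 cells, against 31.3 and 30.9 CPM in shCON cells (log2 fold change 0.67 ± 0.12, adjusted p = 0.0017 by edgeR). GREM1, the BMP antagonist gremlin, had 11.8 and 11.2 CPM in shSPTLC2 cells, against 26.9 and 21.8 CPM in shCON cells (log2 fold change -1.08 ± 0.16, adjusted p = 3.4e-04 by edgeR). FSTL1 and NBL1, the most abundant of this list in CPM, had log2 fold changes of 0.05 ± 0.11 and 0.29 ± 0.11. Of 7 tested further ligands only AMH, anti-Mullerian hormone, was called (14.3%, beside 19.4% of all genes). AMH had 35.5 and 21.5 CPM in shSPTLC2 cells, against 17.5 and 14.7 CPM in shCON cells. The AMH log2 fold change was 0.82 ± 0.22 (adjusted p = 0.024), and 0.34 with GC correction (adjusted p = 0.206). GDF15, a stress cytokine and the most abundant of these ligands in CPM, had 0.28 ± 0.13. Of 4 tested further receptors only ENG, the co-receptor endoglin, was called (25%, beside 19.4% of all genes). ENG had 606 and 590.4 CPM in shSPTLC2 cells, against 508 and 439.6 CPM in shCON cells. The ENG log2 fold change was 0.34 ± 0.11 (adjusted p = 0.045), and 0.12 with GC correction (adjusted p = 0.481). RGMB, a BMP co-receptor, had -0.24 ± 0.10. CDH5, another endothelial gene, had 108.7 and 130.3 CPM in shSPTLC2 cells, against 57.2 and 55.2 CPM in shCON cells. PECAM1 and VWF stayed at 2.09 CPM or below in every library and were lower in shSPTLC2 cells. PECAM1 had 6 and 12 reads in shSPTLC2 cells and 31 and 27 in shCON cells. VWF had 10 and 14 reads in shSPTLC2 cells and 14 and 22 in shCON cells. The 3 endothelial markers summed to 109.8 and 132.0 CPM in shSPTLC2 cells and 60.2 and 58.6 CPM in shCON cells, nearly all of it CDH5, and their part in the ENG value was not tested.

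Genes that store or activate latent TGF-beta gave 2 higher and 3 lower calls of 8 tested (62.5%, beside 19.4% of all genes). BMP1, a protease that cleaves LTBP1, had a log2 fold change of 0.67 ± 0.13 (adjusted p = 0.0022), and THBS1, thrombospondin 1, which activates latent TGF-beta, had 0.52 ± 0.11 (adjusted p = 0.0047). The fibrillins FBN1 and FBN2, which hold latent complexes in the matrix, fell, with log2 fold changes of -0.61 ± 0.12 (adjusted p = 0.0033) and -0.53 ± 0.13 (adjusted p = 0.0085). NRROS was also lower (log2 fold change -0.81 ± 0.24, not called by DESeq2), and the integrin subunit ITGAV had 0.14 ± 0.12. The LTBP genes that rose and the fibrillins, which share their domain structure, thus differed in direction.

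Among SMAD partners and turnover factors, 3 were higher and 4 lower of 22 tested (31.8% called, beside 19.4% of all genes). NEDD4L, a ubiquitin ligase for activated SMAD2 and SMAD3, had 106 and 106 CPM in shSPTLC2 cells, against 168 and 158 CPM in shCON cells (log2 fold change -0.62 ± 0.10, adjusted p = 9.6e-04 by edgeR). The coactivator CREBBP and the anchor protein ZFYVE9 were lower too, with log2 fold changes of -0.49 ± 0.11 and -0.59 ± 0.13. The corepressor TGIF2 was higher, at 0.65 ± 0.14 on the log2 scale. FKBP1A and STRAP, the most abundant of the list in CPM, had 0.13 ± 0.11 and -0.11 ± 0.11.

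Further TGF-beta targets gave 2 higher and 5 lower calls of 21 tested (33.3%, beside 19.4% of all genes). FN1, fibronectin, had a log2 fold change of 0.18 ± 0.15 (adjusted p = 0.44). COL1A1, a collagen gene that also serves as a fibroblast marker, had 6.26 and 4.95 CPM in shSPTLC2 cells, against 1.55 and 2.33 CPM in shCON cells (log2 fold change 1.52 ± 0.30, adjusted p = 0.0029). COL1A1 is 1 of 6 fibroblast markers, of which DCN and LUM were at 0 in every library, COL1A2 had at most 2 reads, COL3A1 at most 1, and PDGFRB had 11 and 9 reads in shSPTLC2 cells and 5 and 5 reads in shCON cells. The markers summed to 7.07 and 5.54 CPM in shSPTLC2 cells and 2.02 and 2.81 CPM in shCON cells, and most of each sum was COL1A1 itself. The cytokine IL11 was higher (log2 fold change 0.73 ± 0.15), while the kinase NUAK1 (-0.75 ± 0.14) and the early response factor KLF10 (-0.47 ± 0.11) were lower.

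BMP targets gave 2 higher and 3 lower calls of 9 tested (55.6%, beside 19.4% of all genes). HES1, a transcriptional repressor also driven by Notch, had 9.59 and 8.27 CPM in shSPTLC2 cells, against 18.5 and 15.2 CPM in shCON cells (log2 fold change -0.92 ± 0.18, adjusted p = 0.0024 by edgeR). UNC5B and HEY1 were lower as well, with log2 fold changes of -1.05 ± 0.26 and -0.47 ± 0.16, and DESeq2 called neither. HEY1 was called in 4 of 11 alternatives. SMAD9, the third BMP SMAD, had a log2 fold change of 0.81 ± 0.19 (adjusted p = 0.0071), and RUNX2, a bone transcription factor, had 0.57 ± 0.15 (adjusted p = 0.018, not called by DESeq2). MSX1, the most abundant of the list in CPM, had 0.22 ± 0.12. ID1 and HES1 were lower in shSPTLC2 cells while SMAD9 was higher, so the called BMP targets, like those of TGF-beta, did not share a direction.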

How the data were processed

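Raw read counts per gene and FPKM (fragments scaled to transcript length and library size) for 4 bulk RNA libraries were deposited by the authors as separate tables of counts and of FPKM. Per the submitters' processing notes, HISAT2, StringTie, SAMtools and the genome build hg38 were used, with their versions and the strand setting of the counting not given in the sources used here. The deposited FPKM values were used only to compare levels between genes, and tests used the deposited counts.

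Counts were tested with edgeR 4.0.16 (limma 3.58.1, R 4.3.3): filterByExpr with a minimum count of 10 and a minimum total of 15, TMM scaling, a robust quasi-likelihood fit and Benjamini-Hochberg adjustment over 15313 genes, called at an adjusted p under 0.05. CPM values use TMM-scaled library sizes, and SE is the log2 fold change divided by the square root of F. The fit was tested on simulated data. The common biological coefficient of variation was 10.1%. Alternatives were RLE factors, library totals, DESeq2 1.42.0, no filter, a replicate block, correction for GC content (lowess span 0.3), both together, and each library left out.

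All 40 pathway genes are named, with full statistics for the called ones and the most abundant uncalled one of each role. From each further list the up to 4 called genes with the smallest adjusted p and the 2 highest in CPM are named, while others named, such as NRROS and ANGPTL4, were picked after their values were seen. A gene that this rule names among the TGF-beta targets is not reported here. The members and lists were chosen with earlier results of these data known. Promoter windows come from RefSeq on GRCh38.p14.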

Additional observations from a re-analysis of the deposited data

How the results depend on the processing

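Over the 39 tested pathway genes and 11 alternatives, 426 values could be computed, and no called gene changed direction. With library totals the number of lower pathway genes was 1 in place of 2, and 65.1% of all calls were higher, against 53.6% with TMM, while the median of all genes moved by 0.055 on the log2 scale. DESeq2 called 1978 genes in all, against 2971 by edgeR. Under correction for GC content SKIL had -0.057 and SKI -0.052 on the log2 scale, and with the replicate block added they had -0.053 and -0.048, and the cause was not tested. The replicate block alone called 3307 genes and 7 higher and 2 lower pathway genes. Same-numbered libraries showed almost no shared deviation (correlation -0.013). With 2 libraries a group, that value cannot decide whether equal numbers mark a pairing or are labels only. Leaving out 1 library gave 3 to 10 higher and 1 to 5 lower pathway genes, 640 to 4027 genes in all, 2 to 15 higher and 3 to 18 lower genes of the further lists, and -0.58 to -0.47 for SPTLC2. The library left alone in its group is then assumed to vary like the other group. Among uncalled genes these fits spanned 0 on the log2 scale for BMP4 (-0.18 to 0.68), TGFBR1 (-0.024 to 0.47), ACVR1 (-0.14 to 0.22), ACVR1B (-0.017 to 0.16), ACVR2A (-0.40 to 0.048), SMAD2 (-0.044 to 0.21), SKIL (-0.057 to 0.26), SKI (-0.042 to 0.20) and LTBP1 (-0.51 to 0.059). With 2 libraries a group, genes of about 1 CPM, such as TGFB2, TGFB3 and BMP4, allow no firm statement.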
